A study of Mus musculus with 16 samples.

Results

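The genes described here encode the actin cytoskeleton, its stress fibres and the adhesions that anchor them: 44 genes of the 24371 in the deposited table, chosen by name, each matched by its symbol. All 44 were found and all 44 had enough counts to be tested. They were measured by RNA sequencing of whole heart tissue in 16 mouse samples. The labels do not tie each sample to its own animal, so "hearts" below means samples. All mice had HFpEF, heart failure in which the ejection fraction is preserved, brought on by 12 weeks of a high-fat diet and L-NAME, which blocks nitric oxide synthesis. The samples form 4 groups of 4: Gpr91fl/fl without succinate (floxed untreated), Gpr91fl/fl with succinate, Myh6Cre Gpr91fl/fl without succinate (Cre untreated) and Myh6Cre Gpr91fl/fl with succinate. Every group, controls included, carries the floxed Gpr91 alleles and the HFpEF model. The series labels the Cre mice as cardiomyocyte knockouts of Gpr91, the receptor for succinate, since the Myh6 promoter drives the recombinase in cardiomyocytes; other cells of the heart keep the intact floxed gene. The succinate dose and the animals' age and sex are not given in the sources used here, and no group without HFpEF was analysed here.

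Actin monomers assemble into filaments that crosslinkers tie into networks or bundles. In a stress fibre, bundled filaments alternate with non-muscle myosin II and are anchored through talin, vinculin and LIM-domain proteins to integrins in the cell membrane. In the heart these proteins are abundant in fibroblasts, vessel walls and leukocytes, and cardiomyocytes use several of them at Z-discs, costameres and intercalated discs beside the sarcomere's own actin and myosin. Many of their genes are known targets of serum response factor (SRF), whose coactivators, the myocardin-related factors, are held in the cytoplasm by free actin monomers. In bulk tissue, fewer cells of a type and less RNA per cell cannot be told apart.

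Library totals were 27835235 to 34700996 counts, and 18038 to 19130 genes had at least 1 count. The 10 cardiomyocyte sarcomere markers were all detected, at a summed 47176 to 70112 CPM per sample (CPM: counts scaled to a common library size). The deleted gene itself, listed as Sucnr1, had 0 to 7 counts in the floxed samples and 2 to 21 in the Cre samples, so these data do not show its loss and "Cre" is used here only as the labelled genotype. The lowest count of any of the 44 genes in any sample was 208, for Cotl1.

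Promoter sequence is shown for 3 genes because their windows hold a CArG box, the motif that SRF binds. RefSeq promoter windows of 300 bases (250 before the start of transcription and 50 after it, build GRCm38.p6) matched 39 of the 44 genes, with 50 windows in all; Actb, Tln2, Cotl1, Pxn and Synpo had none. A CArG box, searched on both strands, lay in 3 of the 50 windows (6.0%), against 1.63% of all 32851 windows and 1.32% of the 14772 windows of tested genes. The stretches below are read along the gene's own strand, 5′ to 3′, and end before the start of transcription; capitals mark the box. They come from chr10:79988454-79988599 (plus strand) for Cnn2, chr11:120348516-120348675 (minus strand) for Actg1 and chr14:20929148-20929240 (plus strand) for Vcl, in coordinates of the RefSeq table's build, which is not that of the counts.
Cnn2: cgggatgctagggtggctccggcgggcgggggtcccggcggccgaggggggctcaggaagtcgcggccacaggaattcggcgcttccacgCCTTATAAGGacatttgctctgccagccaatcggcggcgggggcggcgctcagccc
Actg1: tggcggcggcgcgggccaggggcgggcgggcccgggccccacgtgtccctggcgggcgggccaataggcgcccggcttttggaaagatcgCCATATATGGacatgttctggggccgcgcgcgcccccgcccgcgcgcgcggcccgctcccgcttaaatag
Vcl: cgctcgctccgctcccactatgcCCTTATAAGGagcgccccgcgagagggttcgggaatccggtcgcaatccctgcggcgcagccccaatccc
The box begins 56 bases before the start in Cnn2, 90 in Actg1 and 227 in Vcl. The TEAD motif CATTCC, also on both strands, lay in 12 of the 50 windows (24.0%), belonging to 11 genes, against 14.7% of all windows and 12.5% of those of tested genes. These are matches of letters in a window, not measured binding. Of the 3 genes shown, Cnn2 and Actg1 fell with succinate in floxed hearts and Vcl did not pass the test, as described below.

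Succinate was compared with no succinate in floxed hearts with edgeR's quasi-likelihood test, and a gene was called at an adjusted p of 0.05 or less over all 14607 tested genes. Of the 44 genes, 22 fell, 1 rose (Lims1) and 21 did not pass. Over all tested genes 5.64% were called lower and 7.48% higher, 13.1% in either direction. At an unadjusted p under 0.05 there were 32 of the 44 (72.7%, against 28.4% of all tested genes). The median log2 fold change was -0.39 over the 44 genes and 0.00 over all tested genes, and 39 of the 44 values were negative. In 24 genes all 4 succinate samples lay below all 4 untreated ones, as did 7.65% of all tested genes, and in 1 gene they lay above, as did 10.2%. The list was drawn up with earlier results of these data known, so its counts describe it and do not support it.

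**Figure D1:**
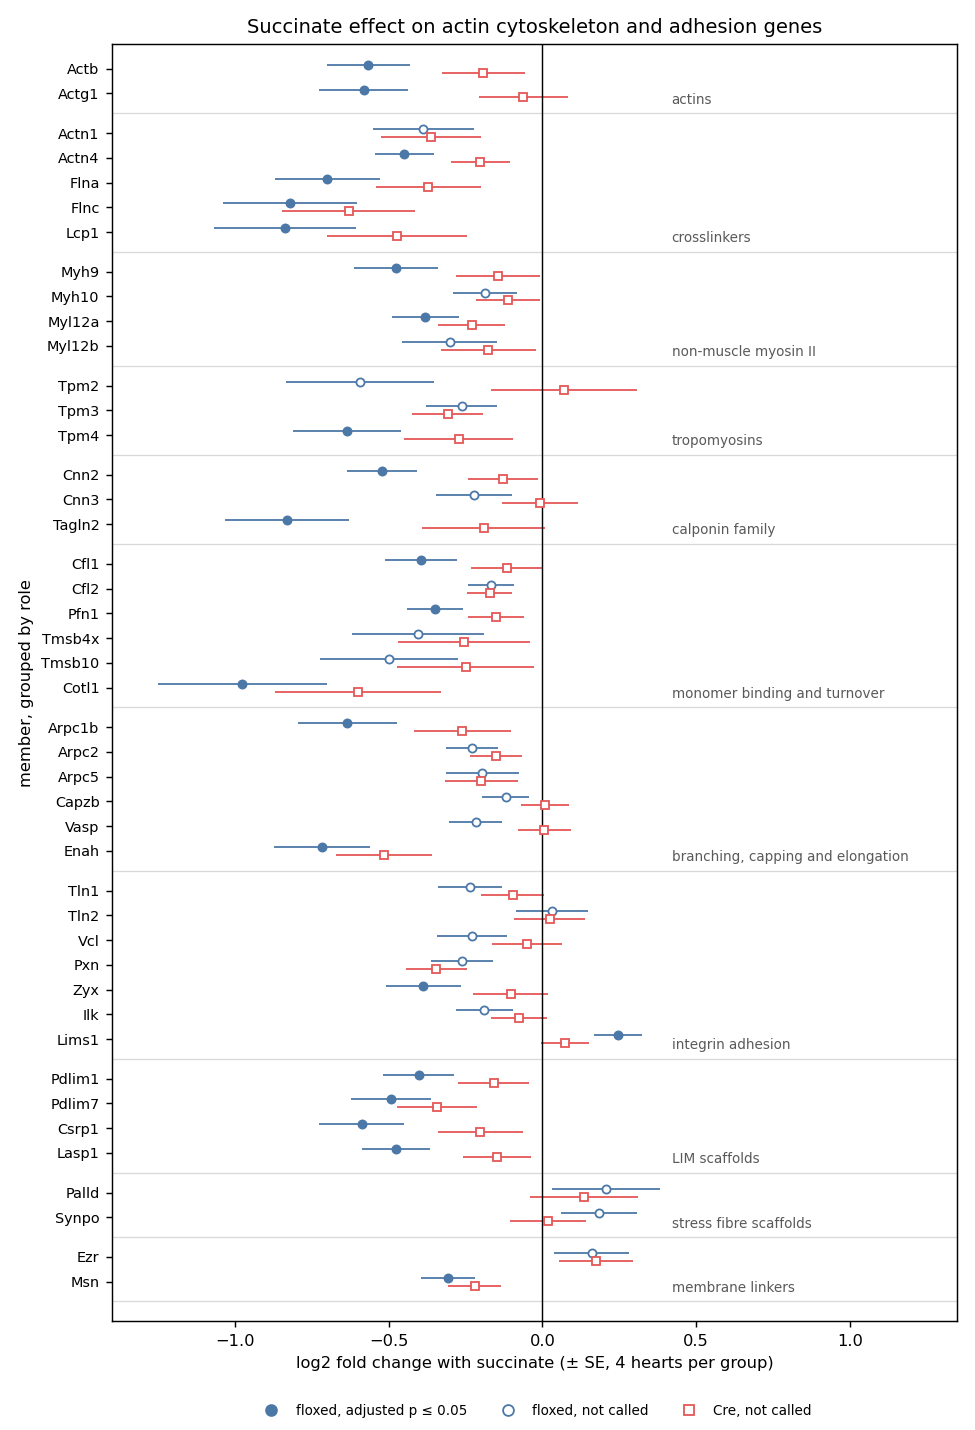
Log2 fold change with succinate for each of the 44 genes, grouped by role, in floxed hearts (blue circles) and Cre hearts (red squares). Circles are filled where the adjusted p was 0.05 or less, and bars are ± 1 standard error from the fit of 4 samples per group. Most blue points lie left of 0, Lims1 is the filled point to the right of it, and most red points lie closer to 0.

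The 2 cytoplasmic actins, Actb (beta-actin) and Actg1 (gamma-actin), which build the filaments outside the sarcomere, were both lower with succinate in floxed hearts. Actb was at 521, 516, 467 and 462 CPM in untreated floxed hearts, replicates 1 to 4, and at 303, 346, 320.2 and 358 CPM with succinate. The groups did not overlap, and the change in Actb was -0.57 ± 0.14 (log2 fold change ± SE, adjusted p = 0.0115 in edgeR). Actg1 was at 281, 289, 244 and 278 CPM without succinate and at 177, 192, 168 and 193 CPM with it. Its groups did not overlap either, and its log2 fold change was -0.58 ± 0.14 (adjusted p = 0.0140, edgeR). In Cre hearts the untreated group spread widely. Actb was at 508, 335, 288 and 409.7 CPM there and at 297, 379, 340.3 and 332 CPM with succinate, so that the untreated samples lay both above and below the treated ones. Actg1 was at 247, 156, 133 and 228 CPM in untreated Cre hearts and at 181, 195, 183 and 172 CPM with succinate, again overlapping. The log2 differences in Cre hearts were -0.19 ± 0.14 for Actb and -0.06 ± 0.14 for Actg1 (adjusted p = 0.557 and 0.894, edgeR). The untreated Cre mean, 385 ± 96.3 CPM for Actb (SD, n = 4), lay between the floxed means of 492 ± 31.4 without and 332 ± 24.8 with succinate.

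**Figure D2:**
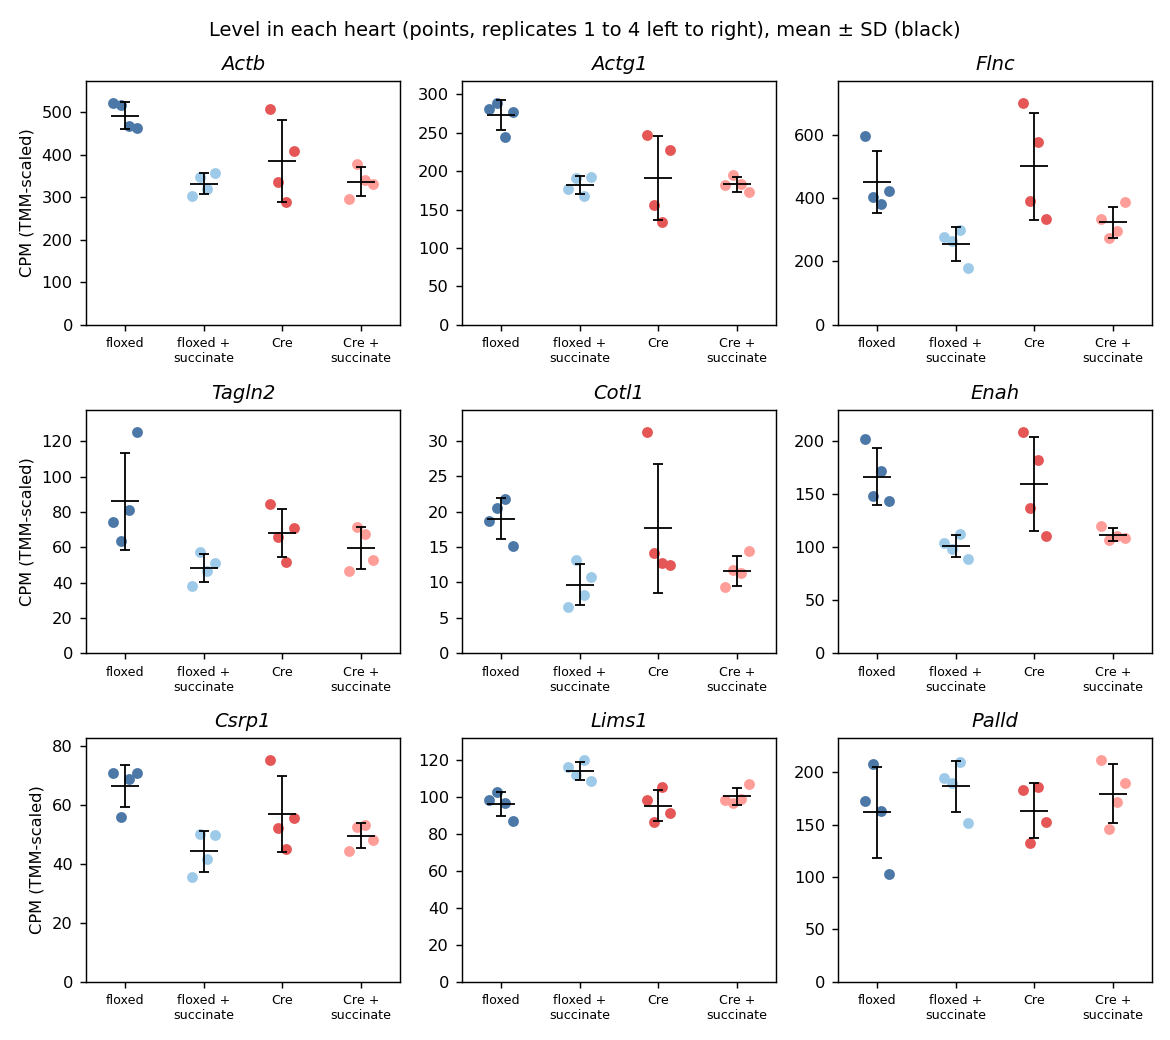
CPM of 9 of the genes in each heart (points, replicates 1 to 4 from left to right in each group), with the mean and SD in black, on linear axes that start at 0. For Actb, Actg1, Flnc, Tagln2, Cotl1, Enah and Csrp1 all 4 floxed hearts given succinate lie below all 4 untreated floxed hearts. Lims1 lies above and Palld overlaps. The untreated Cre hearts have the largest SD of the 4 groups for every gene shown except Tagln2 and Palld.

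Among the 5 crosslinkers, which join filaments into networks and bundles, 4 fell in floxed hearts and Actn1 (-0.39 ± 0.16 on the log2 scale) did not pass. Flnc, the muscle filamin of Z-discs and intercalated discs, was at 596, 403, 383 and 423 CPM without succinate and at 278, 265, 301 and 178 CPM with it. Its groups did not overlap, at a log2 fold change of -0.82 ± 0.22 (adjusted p = 0.0206, edgeR). Lcp1, also called L-plastin, is the bundling protein of leukocytes. It was at 37.7, 40.8, 46.6 and 24.2 CPM without succinate and at 15.0, 23.9, 21.2 and 23.5 CPM with it, a narrow gap between the lowest untreated and the highest treated sample. Its log2 fold change was -0.84 ± 0.23 (adjusted p = 0.0259, edgeR). Flna, the widely expressed filamin, fell by 0.70 ± 0.17 and Actn4, the non-muscle alpha-actinin, fell by 0.45 ± 0.10 on the log2 scale. In untreated Cre hearts replicate 1 stood above the other replicates for Flna (292 CPM against 152 to 159) and Lcp1 (57.3 CPM against 31.1 to 32.8). None of the 5 passed in Cre hearts, where Flnc differed by -0.63 ± 0.22 (adjusted p = 0.180, edgeR).

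Non-muscle myosin II pulls on these filaments. Of its 4 genes here, the heavy chain gene Myh9 and the regulatory light chain gene Myl12a fell in floxed hearts, and Myh10 and Myl12b did not pass. Myh9 was at 244, 238, 227 and 214 CPM without succinate and at 140.4, 197, 185 and 141 CPM with it, with no overlap and a log2 fold change of -0.48 ± 0.14 (adjusted p = 0.0290, edgeR). Myl12a was at 974, 977, 956 and 1121 CPM without succinate and at 711, 738, 779 and 866 CPM with it, also without overlap, at -0.38 ± 0.11 (adjusted p = 0.0281, edgeR). Per length, Myl12a had the highest level of the 44 genes, a mean of 485 ± 75.4 FPKM over the 16 samples (SD), above Tmsb4x at 361 ± 90.3 and Actb at 202 ± 47.4. The 3 lowest were Myh10 at 4.24 ± 0.64, Tln2 at 5.76 ± 0.70 and Actn1 at 6.06 ± 1.56 FPKM. In Cre hearts Myh9 differed by -0.14 ± 0.14 and Myl12a by -0.23 ± 0.11 on the log2 scale, and neither passed.

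Tropomyosins and the calponin family lie along the filament and set which other proteins bind it. Tpm4, a tropomyosin of stress fibres, was at 137, 142, 151 and 203 CPM in untreated floxed hearts and at 73.6, 121, 95.7 and 117 CPM with succinate. It fell by 0.64 ± 0.18 on the log2 scale (adjusted p = 0.0259, edgeR), and Tpm2 and Tpm3 did not pass. Tagln2, also called transgelin-2, was at 74.1, 63.3, 80.9 and 125 CPM without succinate and at 38.0, 57.2, 46.6 and 51.2 CPM with it, a log2 fold change of -0.83 ± 0.20 (adjusted p = 0.0138, edgeR). Replicate 4 set the upper end of the untreated group for both Tpm4 and Tagln2, and neither gene's groups overlapped. Cnn2, the calponin of non-muscle and smooth muscle cells whose promoter is shown above, was at 51.5, 46.7, 46.1 and 53.5 CPM without succinate and at 28.8, 39.0, 34.7 and 35.3 CPM with it. Its groups were well apart, at -0.52 ± 0.11 (adjusted p = 0.00689, edgeR), and Cnn3 did not pass. In Cre hearts the log2 differences were -0.27 ± 0.18 for Tpm4, -0.19 ± 0.20 for Tagln2 and -0.13 ± 0.11 for Cnn2, with none called.

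The 6 genes of monomer binding and filament turnover were all negative in floxed hearts, and 3 of them fell: Cotl1, Cfl1 and Pfn1. Cotl1, a small cofilin-related protein that binds filaments and is abundant in leukocytes, had the largest log2 fold change of the 44, -0.98 ± 0.27 (adjusted p = 0.0279, edgeR). Its values were 18.6, 20.5, 21.8 and 15.1 CPM without succinate and 6.53, 13.1, 8.27 and 10.7 CPM with it, with no overlap. Cfl1 encodes cofilin, which severs filaments. It was at 137, 139, 138 and 145 CPM without succinate, a tight group, and at 86.8, 114, 96.1 and 128 CPM with it, a wider one below. Its log2 fold change was -0.39 ± 0.12 (adjusted p = 0.0336, edgeR). Pfn1, profilin, which hands monomers to growing ends, fell by 0.35 ± 0.09 on the log2 scale. The monomer-sequestering thymosins Tmsb4x and Tmsb10 were at -0.40 ± 0.21 and -0.50 ± 0.22 and did not pass; Cfl2, the muscle cofilin, was at -0.17 ± 0.07 and did not pass. In Cre hearts Cotl1 differed by -0.60 ± 0.27 with overlapping groups, and replicate 1 of the untreated group was again the highest, at 31.3 CPM against 12.5 to 14.2.

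Of the 6 genes of branching, capping and elongation, Enah and Arpc1b fell in floxed hearts, and Arpc2, Arpc5, Capzb and Vasp did not pass. Enah, or Mena, promotes filament elongation and is found at intercalated discs. It was at 202, 148, 172 and 143 CPM without succinate and at 104, 98.5, 113 and 88.6 CPM with it, a clear gap and a log2 fold change of -0.72 ± 0.16 (adjusted p = 0.00673, edgeR). In Cre hearts it was at 209, 137, 182 and 111 CPM without succinate and at 120.3, 107, 111 and 109 CPM with it. There the treated samples lay close together and reached into the lower end of the untreated group; the difference was -0.52 ± 0.16 (adjusted p = 0.118, edgeR). Arpc1b, a subunit of the branching Arp2/3 complex, was at 60.2, 63.4, 74.7 and 77.2 CPM in untreated floxed hearts and at 32.1, 52.3, 37.8 and 55.3 CPM with succinate, a log2 fold change of -0.63 ± 0.16 (adjusted p = 0.0154, edgeR). Its partner subunit Arpc2 was the gene just outside the threshold, at -0.23 ± 0.08 and an adjusted p of 0.0804 in edgeR, although its 3 highest untreated samples lay above all treated ones.

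The integrin adhesion genes held changes in both directions. Of 7, Zyx fell, Lims1 rose, and Tln1, Tln2, Vcl, Pxn and Ilk did not pass in floxed hearts. Zyx encodes zyxin, which gathers at stress fibres under tension. It was at 82.8, 70.5, 71.2 and 76.4 CPM without succinate and at 53.0, 66.8, 52.8 and 57.4 CPM with it, a log2 fold change of -0.39 ± 0.12 (adjusted p = 0.0430, edgeR). Lims1, or PINCH1, joins integrin-linked kinase to other adhesion proteins. It was at 98.3, 103, 96.8 and 87.2 CPM without succinate and at 116, 112, 120.0 and 108 CPM with it, above and without overlap, at +0.25 ± 0.08. Lims1 was the gene just inside the threshold, with an adjusted p of 0.0462 in edgeR. Its partner Ilk differed by -0.19 ± 0.09, and the talins, which link integrins to actin, by -0.24 ± 0.10 (Tln1) and 0.03 ± 0.12 (Tln2). In Cre hearts the largest difference of the 7 was in Pxn, the adhesion scaffold paxillin, at -0.35 ± 0.10 (adjusted p = 0.109, edgeR). Pxn was at 89.6, 79.5, 74.4 and 84.0 CPM without succinate there and at 67.0, 66.8, 68.2 and 55.9 CPM with it, which did not overlap.

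All 4 LIM scaffolds, proteins that dock other factors on filaments, fell in floxed hearts. Csrp1 was at 71.0, 56.0, 68.8 and 70.9 CPM without succinate and at 35.7, 50.4, 41.6 and 49.7 CPM with it, a log2 fold change of -0.59 ± 0.14 (adjusted p = 0.0111, edgeR). Pdlim7 was at 39.1, 36.7, 34.7 and 41.0 CPM without succinate and at 27.3, 30.0, 26.0 and 24.3 CPM with it, at -0.49 ± 0.13 (adjusted p = 0.0192, edgeR). Neither gene's groups overlapped. Lasp1 fell by 0.48 ± 0.11 and Pdlim1 by 0.40 ± 0.12 on the log2 scale. In Cre hearts the 4 were at -0.34 to -0.15 on the log2 scale and none passed. The 2 stress fibre scaffolds, Palld and Synpo, did not pass in either genotype. Palld, or palladin, was at 173, 208, 163 and 103 CPM in untreated floxed hearts and at 194, 189.8, 210.1 and 152 CPM with succinate, overlapping, at 0.21 ± 0.18 on the log2 scale. Of the 2 linkers of actin to the membrane, Msn (moesin) fell and Ezr (ezrin, 0.16 ± 0.12) did not pass. Msn was at 212, 206, 217 and 221 CPM without succinate and at 159, 189, 172 and 171 CPM with it, a log2 fold change of -0.31 ± 0.09 with no overlap (adjusted p = 0.0269, edgeR).

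The number of calls in floxed hearts changed with single samples. Without replicate 1 of the untreated floxed hearts 14 of the 44 genes were called, without replicate 1 of the treated ones 10, and without replicate 3 of the treated ones 11. The calls over all tested genes fell in the same fits, from 13.1% to 7.78%, 6.89% and 7.24%. Actb, Actn4, Cnn2, Enah, Csrp1 and Lasp1, 6 of the 23, were called under each of the 10 other settings tried and each of the 8 samples left out. Actg1 and Flna were also called whichever of the 8 samples was left out. Cfl1 was called in 3 of those 8 fits, and Zyx and Lims1 in 2 each, with highest adjusted p-values over all alternatives of 0.118, 0.123 and 0.229. The single rise, Lims1, was called in 2 of the 10 other settings, DESeq2 and the stricter filter on low counts. All 23 kept their direction under every alternative and every sample left out.

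In Cre hearts none of the 44 genes was called for succinate, against 0.917% of all tested genes. At an unadjusted p under 0.05 there were 12, or 27.3% of the 44 and 14.1% of all tested genes. DESeq2 called 2, Enah and Pxn, and 1.98% of all the genes it tested. Limma on the FPKM called 0, against 0.156% to 1.03% of all genes. The median log2 difference was -0.17 against 0.01 over all tested genes, with 36 of 44 negative, and the same 36 were negative in floxed hearts. In 3 genes, Cfl2, Arpc2 and Pxn, the 4 treated samples lay below the 4 untreated ones (3.39% of all tested genes), in 0 genes above (4.8%), and in 41 the groups overlapped. The 22 genes that fell in floxed hearts had a median of -0.54 there and -0.20 in Cre hearts, where 22 of 22 were negative; they were picked on the floxed values, so the smaller median is a description.

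Whether succinate acted differently in the 2 genotypes is what the interaction tests. It called 0 of the 44 genes and 0% of all tested genes. At an unadjusted p under 0.05 there were 4, or 9.09% of the 44 against 4.85% of all tested genes, and DESeq2 and limma called 0. The 4 were Actg1 (0.52 ± 0.20 on the log2 scale, 95% interval 0.09 to 0.95), Cnn2 (0.39 ± 0.16), Tagln2 (0.64 ± 0.28) and Lasp1 (0.33 ± 0.16), each positive, meaning a less negative value in Cre hearts. For Actb it was 0.37 ± 0.19, with a 95% interval of -0.03 to 0.78. A difference between genotypes was therefore not shown for any of the 44 genes, and the intervals do not show that the responses are alike.

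Between genotypes none of the 44 genes was called, without succinate (0.11% of all tested genes) or with it (0.691%), and DESeq2 and limma called 0. Without succinate the median log2 difference of Cre from floxed hearts was -0.10, and 4 genes had an unadjusted p under 0.05 (9.09%, against 8.75% of all tested genes): Actb at -0.35 ± 0.14, Actg1 at -0.51 ± 0.14, Cnn2 at -0.36 ± 0.11 and Vasp at -0.22 ± 0.08. With succinate the median was 0.07, and 2 genes (4.55% against 11.1%) had such a p: Myh10 at 0.22 ± 0.10 and Lims1 at -0.19 ± 0.08. Actb and Actg1 differed by 0.02 ± 0.14 and 0.01 ± 0.14 between the genotypes given succinate. These comparisons share their samples with the succinate comparisons and are not independent of them.

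**Figure D3:**
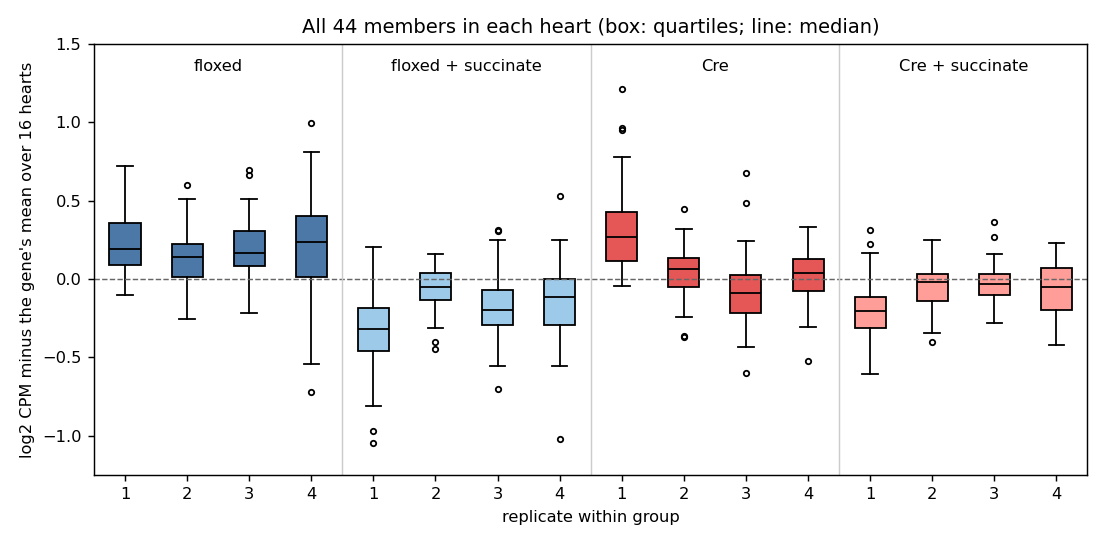
Each box holds the 44 genes in 1 heart, as log2 CPM minus the gene's mean over the 16 hearts (box: quartiles; line: median; dots: genes beyond the whiskers). The untreated floxed hearts have medians of 0.14 to 0.23, and untreated Cre replicate 1, at 0.27, stands above the other hearts of its group.

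By sample, the median deviation of the 44 genes from their mean over 16 hearts was 0.14 to 0.23 on the log2 scale in untreated floxed hearts and -0.32 to -0.05 in those given succinate. In untreated Cre hearts it was 0.27, 0.06, -0.09 and 0.04, and replicate 1 was the highest of its group for 32 of the 44 genes. Replicate 1 was also the lowest of its group for 25 genes among the floxed hearts given succinate and for 25 among the Cre hearts given succinate. The median genotype difference without succinate was -0.21 when that replicate 1 of the untreated Cre group was left out, against -0.10 with it. Flna was then called lower in Cre hearts (-0.57, adjusted p = 0.0468, edgeR), and the median succinate difference in Cre hearts was -0.10, against -0.17. The median coefficient of variation over the 44 genes was 13.4% in untreated Cre hearts and at most 11.6% in each of the other groups.

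Markers of other cell types were measured beside these genes, and macrophage and leukocyte markers were the list with several calls. Of 10 macrophage and leukocyte markers 7 fell in floxed hearts (median -0.68), among them Ptprc, the CD45 gene, at -0.53 ± 0.13 and Adgre1, the F4/80 gene, at -0.72 ± 0.21. In Cre hearts 1 of the 10 fell, Ptprc, at -0.90 ± 0.13 (adjusted p = 0.00540, edgeR), with a median of -0.38 over the 10. Their summed level was 439.8 to 625.7 CPM in untreated floxed hearts, 244.9 to 478.0 with succinate, 476.6 to 716.1 in untreated Cre hearts, where replicate 1 was the highest, and 317.1 to 527.7 in Cre hearts with succinate. The 6 smooth muscle markers were negative in both genotypes (medians -0.73 and -0.34) with none called, at 314.9 to 650.6, 300.2 to 375.1, 274.4 to 613.8 and 289.5 to 322.6 CPM in the same order of groups. Replicate 1 was the highest untreated Cre heart there too. Of the other lists, 0 of 8 fibroblast markers were called in floxed hearts (median -0.19), 1 of 8 endothelial markers fell (Emcn), 1 of 6 pericyte markers rose (Abcc9) and 1 of 10 sarcomere markers rose (Myh6, 0.69 ± 0.13). Over all tested genes 5.64% were called lower and 7.48% higher in floxed hearts, and 0.917% in either direction in Cre hearts. The 10 sarcomere markers summed to 52967 to 59540 CPM in untreated floxed hearts and 62565 to 70112 CPM with succinate. In Cre hearts they summed to 47176 to 56719 CPM without it and 57194 to 70036 CPM with it. In the same order, the 6 pericyte markers summed to 1132.9 to 1326.2, 1304.8 to 1409.6, 945.7 to 1235.5 and 1302.6 to 1451.7 CPM. The sarcomere sums did not overlap in either genotype, and the pericyte sums overlapped only in floxed hearts. Among single tested genes, all 4 treated samples lay above all 4 untreated ones in 10.2% in floxed and 4.8% in Cre hearts. A sum weighs its most abundant genes most, so these sums do not show a rise of every marker in a list. The 5 atrial markers summed to 174.6 to 460.8 CPM in untreated floxed hearts and 65.4 to 94.5 CPM with succinate, where Sln was at 0, and to 357.5 to 1613.3 CPM (highest in replicate 1) and 460.9 to 925.1 CPM in Cre hearts. Mesothelial markers summed to at most 12.4 CPM in any sample, adipocyte and lymphocyte markers to at most 1.9. The part of these cell types in the changes of the 44 genes was not tested.

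Other genes of the pathway were listed by role, 82 in 7 lists, of which 6 are described here. Over the 82, 15 fell and 0 rose in floxed hearts, with a median of -0.12. Of all tested genes 5.64% were called lower there and 7.48% higher. The counts of the short lists below stand beside those shares and were not compared by a test. Of the 5 genes of SRF and its coactivators 3 fell, Srf at -0.61 ± 0.13, Myocd (myocardin) at -0.72 ± 0.20 and the cofactor Fhl2 at -0.53 ± 0.11, while Mrtfa was at -0.18 ± 0.15 and Mrtfb at 0.40 ± 0.14. Of 11 other crosslinkers and contractile partners 4 fell, among them Synpo2l, a Z-disc partner of alpha-actinin, at -1.23 ± 0.17, and the bundling protein gene Pls3 at -0.44 ± 0.12. Of 19 other nucleators, cappers and turnover factors 3 fell, including Capza1 at -0.45 ± 0.10. Of 9 other LIM and PDZ-LIM proteins 2 fell, Xirp2 at -1.05 ± 0.21 and Csrp3 at -0.33 ± 0.10, both cardiomyocyte proteins. Of 14 other focal adhesion proteins 1 fell, Fermt3 (-0.65 ± 0.21), the kindlin of blood cells. Of 9 integrins none was called and 2 had an unadjusted p under 0.05, against 28.4% of all tested genes. In Cre hearts 1 of the 82 was called, against 0.917% of all tested genes: Synpo2l, at -1.13 ± 0.17 (adjusted p = 0.00667, edgeR).

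**Figure D4:**
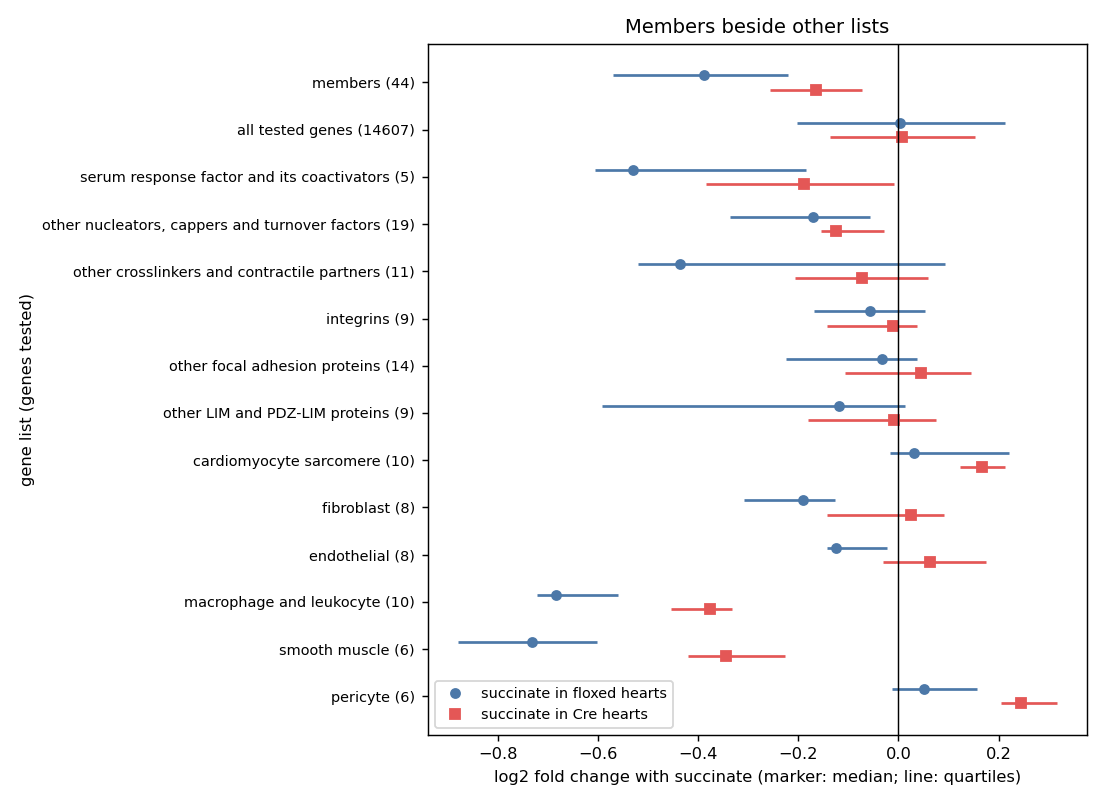
Median (marker) and quartiles (line) of the log2 fold change with succinate in floxed (blue) and Cre (red) hearts for the 44 genes, all 14607 tested genes, 6 other pathway lists and the cell type marker lists with at least 5 tested genes. The 44 genes lie at -0.39 and -0.17, the macrophage and leukocyte markers at -0.68 and -0.38, and all tested genes near 0.

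In the pathway annotation deposited with the counts, 20 of the 44 genes carry the term for regulation of the actin cytoskeleton. Among the 172 other tested genes of that term 11 fell and 7 rose in floxed hearts, 10.5% called in either direction against 13.1% of all tested genes, with a median of -0.10. Of the 44 genes 15 carry the term for focal adhesion, and among its 171 other tested genes 13 fell and 6 rose (11.1%), also with a median of -0.10. Both shares lie near that of all tested genes.

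Some of these genes share sequence with relatives and pseudogenes, which the authors' counting could have split or dropped. The longest protein-coding transcript of each gene in GENCODE release M21 was compared with the mouse transcripts of other genes, on the same strand only. By that transcript, 19 of the 44 genes had no stretch of 50 bases in common with another gene and 33 had under 10% of their stretches in common. Other transcripts of the 44 genes were not searched. Tpm3 shared 62.4%, all with Tpm3-rs7, and Actg1 shared 56.7%, mostly with the pseudogene Gm12715. Tmsb10 shared 43.5%, Myl12a 29.6%, nearly all with Myl12b, and Actb 14.2%. Among other genes called in floxed hearts, Pdlim1 shared 19.8%, Arpc1b 12.8% and Tpm4 12.1%. The levels of such genes, Actg1, Tpm3, Tmsb10 and Myl12a above all, are uncertain by an amount that these shares do not measure.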

How the data were processed

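The authors deposited whole-number read counts per gene and FPKM values made from them. TRIzol was used to extract RNA and the VAHTS Universal V6 kit to build libraries, per the labels' protocols. The submitters' processing notes name fastp, HISAT2, HTSeq, R 3.2.0, DESeq2 and the GRCm39 build, without roles; the sources used here do not state whether strand was used, so reads of antisense partners cannot be told apart.

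Counts were analysed as deposited with edgeR 4.0.16 in R 4.3.3: filterByExpr with a minimum count of 10 (14607 of 24371 genes kept), TMM factors, 4 group means in 1 robust quasi-likelihood fit on 12 residual degrees of freedom. Adjustment was by Benjamini-Hochberg over all genes tested, with 0.05 as the threshold. The code was tested on simulated data. CPM are counts scaled by the total times its TMM factor; SEs are the log2 fold change over the square root of F. The alternatives were DESeq2 1.42.0, RLE factors, no filter or a minimum of 50 counts in 4 libraries, mitochondrially encoded genes left out, only the groups compared, a replicate block, limma 3.58.1 on log2 of the FPKM plus 1 or 0.1 or with a mean FPKM of at least 1, and each sample left out.

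The members and lists were chosen with earlier results of these data known. Named with values per heart were Actb, Actg1 and, per role, up to 2 called genes with the largest fold change in floxed hearts. Where none was called, the gene of highest FPKM was taken. Other called genes are named with their fold change. The plan was to name up to 4 called genes of smallest p per pathway list, but some of these are not named here. Flna in Cre hearts, Pxn and the genes at p under 0.05 were named after their values were seen. Cell type markers were planned as lists only, so those named singly were also outside the planned selection. Nothing in the labels ties each sample to its own animal; the p-values therefore cover only sample-to-sample spread, which may be technical. All 16 samples share 1 batch label. The values of 1 pathway list and 1 further gene are not reported here.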

Additional observations from a re-analysis of the deposited data

Results flagged for a closer look

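In 19 genes named with values per heart, 76 groups of 4 samples were examined for a sample that lay far from the other 3, which chance gives in about 1 of 20 groups, and 4 were found. Lcp1 was at 57.3 CPM and Cotl1 at 31.3 CPM in replicate 1 of the untreated Cre hearts, where the other replicates were at 31.1 to 32.8 and at 12.5 to 14.2 CPM. Myl12a was at 1121 CPM in replicate 4 of the untreated floxed hearts, above the 956 to 977 CPM of the others. Csrp1 was at 56.0 CPM in replicate 2 of that group, below the 68.8 to 71.0 CPM of the others.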

How the results depend on the processing

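In floxed hearts 23 of the 44 genes were called for succinate, and 17 to 25 under DESeq2, RLE factors, no filter, the stricter filter, mitochondrially encoded genes left out, only the groups compared and a minimum FPKM. Over all genes these fits called 5.97% (no filter) to 16% (stricter filter). Limma on log2(FPKM + 1) called 10 and with 0.1 called 15, while over all genes these fits called 3.91% and 4.6% against 13.1%. Leaving out 1 floxed sample gave 10 to 25, and 6.89% to 13.5% over all genes. In Cre hearts, where none was called, DESeq2 called 2 (Enah and Pxn) and 1.98% of all genes. Leaving out 1 sample gave 0 to 1 there (Enah, without untreated replicate 4, where 0.961% of all genes were called). For genotype without succinate leaving out 1 sample gave 0 to 1 (Flna, without untreated Cre replicate 1, where 0.122% of all genes were called). The causes were not tested. Leaving out untreated Cre replicate 1 also from the comparisons that do not use it was added after seeing the data. It gave 24 calls in floxed hearts, and 14.3% over all genes. Same-numbered samples correlated at -0.11 to 0.32 and were not each other's best match throughout, so the numbers were not taken as pairs. With the replicate block 19 genes were called in floxed and 1 (Enah) in Cre hearts, against 13% and 0.931% of all genes. Under some alternative or left-out sample the log2 difference changed sign in 1 of the 44 genes for succinate in floxed hearts, 9 for succinate in Cre hearts, 16 and 19 for genotype without and with succinate, and 12 for the interaction. Among these, with the range over left-out samples, were genotype with succinate for Actb (-0.041 to 0.078) and Actg1 (-0.033 to 0.034), and succinate in Cre hearts for Actg1 (-0.20 to 0.069) and Zyx (-0.18 to 0.040). With 4 samples a group, differences near the spread between samples could not be detected. Each of the 44 genes had at least 208 counts in each sample; the effect of depth was not tested.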
